A study of Mus musculus with 2 samples.

Results

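The genes described here encode 8 integrin subunits with known parts in the homing of T cells to the gut and their retention there, of 28009 genes listed in both matrices. They were listed by name and not by a cut on a measured value, but with earlier results of these data known. They are the alpha subunits *Itgae*, *Itga1*, *Itga2*, *Itga4* and *Itgal* and the beta subunits *Itgb1*, *Itgb2* and *Itgb7*. They were measured in eGFP+ CD4+ T cells, Foxp3+ cells included, of mice that carry an IL-10 eGFP and a Foxp3 mRFP reporter, in which green fluorescence marks IL-10 and red fluorescence marks Foxp3. All mice had received anti-CD3, which stimulates T cells through their receptor, so no untreated group stood beside them. Each tissue, small intestine and spleen, gave 1 library by the 10X droplet method. The study's mice were young adult littermates matched for age and sex, and the number pooled for a library is not given in the sources used here. The study separates lymphocytes of the gut epithelium and of the lamina propria, and which of them the library of the small intestine held is not stated.

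Integrins are pairs of an alpha and a beta subunit that hold a cell to its neighbours or to the matrix, and a subunit reaches the cell surface only with a partner. *Itgae* encodes CD103, which pairs with the product of *Itgb7* and binds E-cadherin of epithelial cells, a known anchor of lymphocytes within the gut epithelium. The product of *Itga4* pairs with that of *Itgb7* to bind MAdCAM-1 on gut vessels, or with that of *Itgb1* to bind VCAM-1 and fibronectin, while *Itga1* and *Itga2* encode CD49a and CD49b, collagen receptors that pair with *Itgb1*, and *Itgal* and *Itgb2* encode LFA-1, the receptor of ICAM-1.

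The small intestine had 1474 barcodes with 5693395 unique molecular identifiers (UMIs), each a captured RNA molecule, and the spleen 1738 with 11103530. After a filter on quality and the removal of cells in G2/M, 1278 intestinal cells with a median of 3696 UMIs and 1469 splenic cells with a median of 5408 were kept. The libraries shared 0 barcodes. Levels are UMIs summed over a group of cells, per 1000000 UMIs of that group (CPM, counts per 1000000). The median UMIs of splenic cells were 1.46 times those of intestinal cells. Shares of cells with a UMI are therefore also given at equal depth, with each cell thinned at random to 2089 UMIs. Thinning left out 128 intestinal and 30 splenic cells. Bounds in brackets are exact 95% intervals and cover counting error only. A tissue had a single library, and its cells do not stand for replicate mice, so no p-value is given. A gene with 50 or more UMIs in both groups together was counted as higher or lower where its levels differed at least 2-fold. The T cell markers *Cd3d*, *Cd3e*, *Cd3g* and *Cd4* had UMIs in 99.7% of intestinal and 99.9% of splenic cells. Of the marker lists of other cells, at least 1 of 5 myeloid markers was found in 20.0% of intestinal and 7.76% of splenic cells, mostly *Cd68* in the small intestine (63.2 CPM), and at least 1 of 3 stromal markers, nearly all *Pecam1*, in 4.77% and 12.9%. Epithelial markers were found in 13.1% and 12.3%, mostly *Lgals4* in the small intestine (29.8 CPM) and *Epcam* in the spleen (31.7 CPM). B cell markers were found in 3.05% and 3.61%. The NK cell, mast cell and platelet lists had between 0 and 18 UMIs in a library, with *Ncr1*, *Cpa3*, *Mcpt1*, *Pf4* and *Ppbp* at 0 in both. The part of these markers in the differences between the tissues was not tested. The sort held no class of cells known to lack these integrins, so the share of their UMIs that came from free RNA was not gauged from such a class. The gamma-delta T cell markers of the list were not analysed here. *Cd8a* had 1009 UMIs in the intestinal and 0 in the splenic cells, although both had been sorted as CD4+, and *Cd8b1* had 767 and 126.

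RefSeq promoters were given for 5 of the 8 genes, *Itga1*, *Itga2*, *Itga4*, *Itgb1* and *Itgb7*. Those of *Itga1* and *Itgb1* are shown because these genes stood farthest apart between the tissues in opposite directions among the 5, and that of *Itga4* because its level was alike in both tissues while it was the only one of the 5 with the letters of a RUNX site. Each runs 5′ to 3′ from 250 bases before to 50 bases after the start of the gene (build GRCm38.p6), with matches to TGTGGT (RUNX core), GGGCGG (GC box) and CGGAAG (ETS core), or to their reverse complements, in capitals.
Itga1 (chr13:115101915-115102214, minus strand): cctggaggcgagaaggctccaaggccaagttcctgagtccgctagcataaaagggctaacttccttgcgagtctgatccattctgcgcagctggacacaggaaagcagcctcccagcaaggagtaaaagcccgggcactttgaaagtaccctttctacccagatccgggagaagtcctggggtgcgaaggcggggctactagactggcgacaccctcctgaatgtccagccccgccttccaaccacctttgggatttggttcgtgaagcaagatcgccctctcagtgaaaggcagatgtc
Itgb1 (chr8:128685404-128685703, plus strand): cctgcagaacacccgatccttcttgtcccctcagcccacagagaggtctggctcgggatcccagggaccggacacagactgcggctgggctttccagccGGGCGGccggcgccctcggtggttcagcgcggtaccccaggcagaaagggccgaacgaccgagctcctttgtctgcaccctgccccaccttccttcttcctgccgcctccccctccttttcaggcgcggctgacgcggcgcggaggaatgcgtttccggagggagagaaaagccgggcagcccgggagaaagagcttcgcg
Itga4 (chr2:79255176-79255475, plus strand): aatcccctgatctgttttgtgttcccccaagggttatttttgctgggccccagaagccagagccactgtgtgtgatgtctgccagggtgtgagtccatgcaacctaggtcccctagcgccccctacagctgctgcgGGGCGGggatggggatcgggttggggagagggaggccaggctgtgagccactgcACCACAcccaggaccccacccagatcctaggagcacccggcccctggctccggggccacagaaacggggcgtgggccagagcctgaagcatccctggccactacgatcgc
The promoter of *Itga1* held none of the 3 motifs, that of *Itgb1* 1 GC box, and that of *Itga4* 1 GC box and 1 RUNX core on the opposite strand. Of 32851 promoters of the same length, 16.8% held the RUNX core, 35.7% the GC box and 16.9% the ETS core. The promoter of *Itgb1* had 67.3% G and C and 27 CpG, against 56.7% and 12 in that of *Itga1*, beside a median of 52.7% and 7 CpG over all promoters.

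Between the tissues, the 2 alpha subunits tied to retention in epithelium and collagen, *Itgae* and *Itga1*, were far higher in the small intestine, and *Itgb1* was far lower there. The gut-homing subunits *Itga4* and *Itgb7* and both subunits of LFA-1 had levels within 1.5-fold of each other in the 2 libraries. Of the 7 genes with 50 or more UMIs, 2 were at least 2-fold higher in the small intestine and 1 was at least 2-fold lower, beside 10.4% and 13.6% of the 9034 genes of that depth. The median log2 ratio was -0.08 over the 7 genes and -0.02 over all, and the latter was 0.10 with *Ccl5*, *Gzma* and *Gzmb* left out of the totals.

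**Figure D1:**
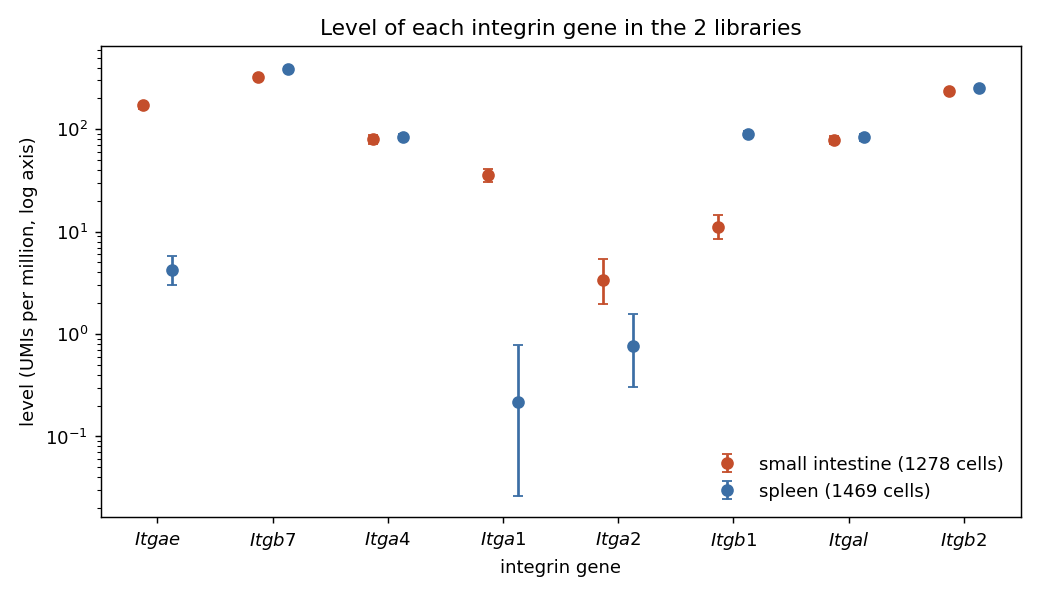
Level of each of the 8 integrin genes in CPM (log axis) in the library of the small intestine and in that of the spleen. Points are levels over all kept cells and bars are exact Poisson 95% intervals, which cover counting error only. *Itgae* and *Itga1* lie more than a decade higher in the small intestine, *Itgb1* lies lower there (11.1 against 89.5 CPM), and *Itgb7*, *Itga4*, *Itgal* and *Itgb2* nearly coincide.

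*Itgae* (ENSMUSG00000005947, GRCm38 chromosome 11, 73090583 to 73147446, plus strand), encoding CD103, had 859 UMIs in the small intestine, 171 CPM (159 to 182), and 39 in the spleen, 4.26 CPM (3.03 to 5.82). The level was 40.1-fold (29.1 to 56.8) higher in the small intestine. A UMI was found in 34.8% of intestinal and 2.04% of splenic cells as deposited, and in 25.04% (22.6 to 27.7) and 0.556% (0.240 to 1.09) at equal depth. The bounds of the shares were far apart at either depth. A UMI of any of 5 B cell markers was found in 3.61% of splenic cells as deposited. A list of 5 genes is no measure of background for 1 gene. How much of the splenic *Itgae* RNA was background was not tested. The gene *Gsg2* lies within *Itgae* on the other strand and had 27 and 89 UMIs, and whether the counting used strand is not stated. Within the small intestine, *Itgae* RNA was spread unevenly, with 1 UMI in 226 cells, 2 in 114 and 3 to 10 in 105, and these last cells held 47.1% of its UMIs. In the spleen, 25 of its 30 positive cells had a single UMI and 1 cell had 6.

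*Itgb7* (ENSMUSG00000001281, chromosome 15, 102215995 to 102231944, minus strand), the shared partner of *Itgae* and *Itga4*, had 321 CPM (305 to 337) in intestinal and 389 CPM (377 to 402) in splenic cells. The intestinal level was 0.824 (0.776 to 0.874) times the splenic one, a small difference beyond counting error. Shares were 58.8% and 73.7% as deposited, and 43.1% (40.2 to 46.1) and 49.0% (46.4 to 51.6) at equal depth. The partner of *Itgae* was thus found in many cells of both libraries, while *Itgae* itself was found in few splenic cells. The difference of *Itgb7* between the tissues was not seen within either class when cells were split at a *Ccl5* share of 1%. The split did not match the cells. Of 1052 intestinal cells at 1% or more, 881 had 3% or more, against 61 of 115 splenic ones. What *Ccl5* has to do with the difference was not tested. Among cells in which *Ccl5* took at least 1% of UMIs, *Itgb7* had 298 CPM in intestinal and 270.2 in splenic cells, a ratio of 1.10 (0.935 to 1.31). Among the other cells it had 420.0 and 398 CPM, a ratio of 1.06 (0.949 to 1.17). With *Ccl5*, *Gzma* and *Gzmb* left out of the totals, the ratio of *Itgb7* was 0.899, and with every cell that had a *Cd8a* or *Cd8b1* UMI left out it was 0.733.

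*Itga4* (ENSMUSG00000027009, chromosome 2, 79255426 to 79333123, plus strand), the alpha subunit of the MAdCAM-1 receptor, had 79.9 CPM (72.2 to 88.1) in intestinal and 84.2 CPM (78.3 to 90.3) in splenic cells. The ratio of 0.949 (0.839 to 1.07) had an interval that held 1. More splenic than intestinal cells had a UMI as deposited, 34.1% against 24.96%, but at equal depth the order was turned in the thinning used, with 15.4% (13.6 to 17.4) against 17.7% (15.6 to 20.1) and bounds that overlapped. Over 5 random thinnings the ratio of levels lay between 0.826 and 1.08, so no direction was detectable for *Itga4*. The end of *Itga4* overlaps *Cerkl* of the other strand, which had 7 and 12 UMIs.

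*Itga1* (ENSMUSG00000042284, chromosome 13, 114953096 to 115101964, minus strand), encoding the collagen receptor CD49a, had 179 UMIs in the small intestine, 35.6 CPM (30.5 to 41.2), and 2 in the spleen, 0.218 CPM (0.0264 to 0.789). The ratio was 163 (44.4 to 1355), with 2 UMIs in the spleen behind it. At equal depth 7.39% (5.95 to 9.06) of intestinal cells had a UMI, against 0 of 1439 splenic cells, with an exact upper bound of 0.256% (3 counts, the limit set here for a count of 0, would be 0.208%). As deposited, the shares were 12.1% and 0.136%. *Itga1* UMIs were mostly single, in 136 of 155 positive intestinal cells. *Pelo* lies within *Itga1* on the same strand and had 30.6 and 20.8 CPM, a ratio of 1.47 (1.18 to 1.82), and how reads of the overlap were assigned is not stated.

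*Itgb1* (ENSMUSG00000025809, chromosome 8, 128685654 to 128733200, plus strand), the beta subunit of both collagen receptors, ran the other way. It had 56 UMIs in the small intestine, 11.1 CPM (8.40 to 14.4), and 820 in the spleen, 89.5 CPM (83.5 to 95.8), and was 8.05-fold (6.13 to 10.7) lower in the small intestine. The shares of cells with a UMI were 4.15% and 30.3% as deposited, and 2.43% (1.62 to 3.50) and 15.5% (13.7 to 17.5) at equal depth. Intestinal cells therefore had more RNA of the collagen-binding alpha subunit and less of its partner than splenic cells. In the spleen its RNA was concentrated, with 46.0% of the UMIs in 84 cells that had 3 to 15 each. *Itga2* (ENSMUSG00000015533, chromosome 13, 114833081 to 114932100, minus strand), encoding CD49b, was rare in both tissues. It had 17 UMIs in 17 intestinal cells, 3.38 CPM (1.97 to 5.41), and 7 in 7 splenic cells, 0.764 CPM (0.307 to 1.57), with a ratio of 4.42 (1.74 to 12.6), and was below the 50 UMIs set for a call.

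*Itgal* (ENSMUSG00000030830, chromosome 7, 127296260 to 127335138, plus strand) and *Itgb2* (ENSMUSG00000000290, chromosome 10, 77530252 to 77565708, plus strand), the subunits of LFA-1, were present in both libraries at similar levels. *Itgal* had 78.7 CPM (71.1 to 86.8) in intestinal and 83.4 CPM (77.6 to 89.5) in splenic cells, a ratio of 0.943 (0.833 to 1.07). *Itgb2* had 235 CPM (222 to 249) and 256 CPM (245 to 266), a ratio of 0.921 (0.858 to 0.988), which became 1.005 with *Ccl5*, *Gzma* and *Gzmb* left out of the totals. As deposited, 72.4% of splenic and 54.4% of intestinal cells had an *Itgb2* UMI, and at equal depth 39.9% (37.3 to 42.5) and 37.7% (34.9 to 40.6). The gap in shares was thus smaller at equal depth, where the bounds overlapped. The same held for *Itgal*, with 37.6% and 25.8% as deposited and 16.3% and 14.9% at equal depth.

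**Figure D2:**
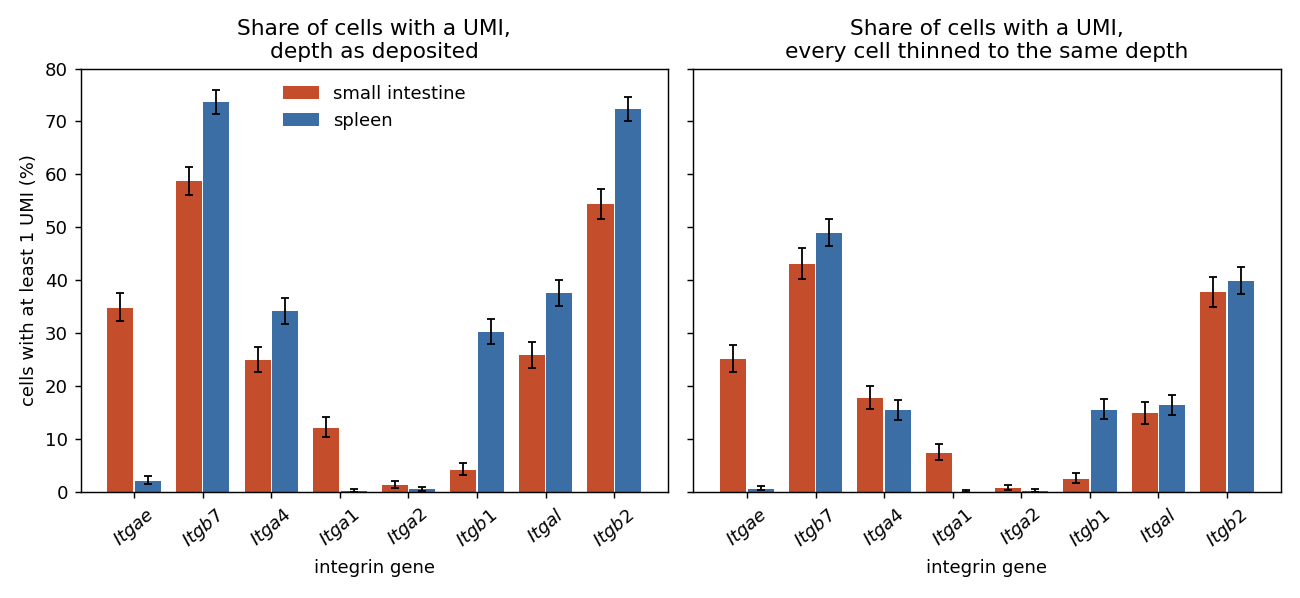
Share of cells with at least 1 UMI of each integrin gene (%), at the depth deposited (left) and with every cell thinned to the same number of UMIs (right), in the small intestine and the spleen. Bars have exact binomial 95% intervals. For *Itga4*, *Itgal* and *Itgb2* the splenic shares are higher on the left, while on the right the intervals of the tissues overlap. *Itgae*, *Itga1* and *Itgb1* stay apart (2.43% against 15.5% for *Itgb1* at equal depth).

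Most other integrin subunits were scarce. Of 17 other subunit genes, 4 had 50 or more UMIs, of which 2 were at least 2-fold higher in the small intestine and 2 lower (median log2 ratio 0.00). *Itgav*, the alpha subunit of the vitronectin receptors, had 65.0 and 30.8 CPM, a ratio of 2.11 (1.79 to 2.48), and its partner *Itgb3* 10.5 and 3.82 CPM. *Itgb8*, whose pair with *Itgav* can release active TGF-beta, was lower in the small intestine, with 2.78 against 26.5 CPM, a ratio of 0.105 (0.0565 to 0.179). *Itga6*, which pairs with *Itgb1* or *Itgb4* to bind laminin, had a ratio of 0.477 (0.334 to 0.668). At equal depth *Itgav* had 1.96 (1.51 to 2.57), *Itgb3* 1.92 (0.959 to 3.95) and *Itga6* 0.546 (0.323 to 0.897), all within 2-fold. *Itgb8* stayed beyond it, with 0.0944 (0.0397 to 0.193). Among 15 of 18 genes that switch integrins to the active state or join their tails to the skeleton of the cell, 1 was at least 2-fold higher and 2 lower (median log2 ratio 0.17). *Ptk2b*, a kinase related to focal adhesion kinase, had a ratio of 2.21 (1.98 to 2.47). *Flna*, a filamin that links integrin tails to actin, had 0.232 (0.186 to 0.287), and *Rasgrp2*, an activator of the Rap1 switch, 0.368 (0.315 to 0.429). The other adaptors, the talin gene *Tln1* and the kindlin gene *Fermt3* among them, were within 2-fold as deposited, with 1.13 and 0.680. *Rap1a* lay nearest the limit, with 0.516 (0.485 to 0.548), and 0.491 (0.446 to 0.540) at equal depth. Of the integrin ligands, 3 of 10 had 50 or more UMIs and 2 were at least 2-fold lower in the small intestine (median log2 ratio -1.56), *Icam2*, a ligand of LFA-1, with 0.339 (0.264 to 0.432), and *Spp1*, osteopontin, with 5 against 202 UMIs, 57.8% of those left in the spleen at equal depth being from 1 cell.

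Genes of residency and recirculation, which set whether a T cell stays in a tissue or leaves it, were split. Of 10 with 50 or more UMIs, 4 were at least 2-fold higher in the small intestine and 4 lower (median log2 ratio -0.11). Among the higher ones were the receptor of the gut chemokine CCL25, *Ccr9*, with a ratio of 19.0 (15.9 to 22.9), *Rgs1*, a brake on chemokine receptors, with 6.72 (6.42 to 7.04), and *Cd69*, which holds back S1P receptors, with 3.26 (2.99 to 3.56). Among the lower ones were the lymph node homing receptor *Ccr7* (0.126, 0.0944 to 0.166), the exit receptor *S1pr1* (0.0757, 0.0464 to 0.117) and its activator *Klf2* (0.0957, 0.0796 to 0.114). Of 14 tested regulators tied to *Itgae* or to gut homing, 7 were higher and 1 was lower (median log2 ratio 1.08). *Runx3*, a transcription factor known to act on *Itgae* in CD8 T cells, had 249 against 76.7 CPM, a ratio of 3.24 (2.95 to 3.56). *Smad7* and *Skil*, both induced by TGF-beta and both brakes on its signal, had 6.69 (5.73 to 7.85) and 4.90 (4.22 to 5.72), and *Bhlhe40* 3.56 (3.23 to 3.93). *Smad3*, which carries the signal of TGF-beta, was lower in the small intestine, with a ratio of 0.264 (0.152 to 0.435). What these genes have to do with the integrin levels was not tested.

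**Figure D3:**
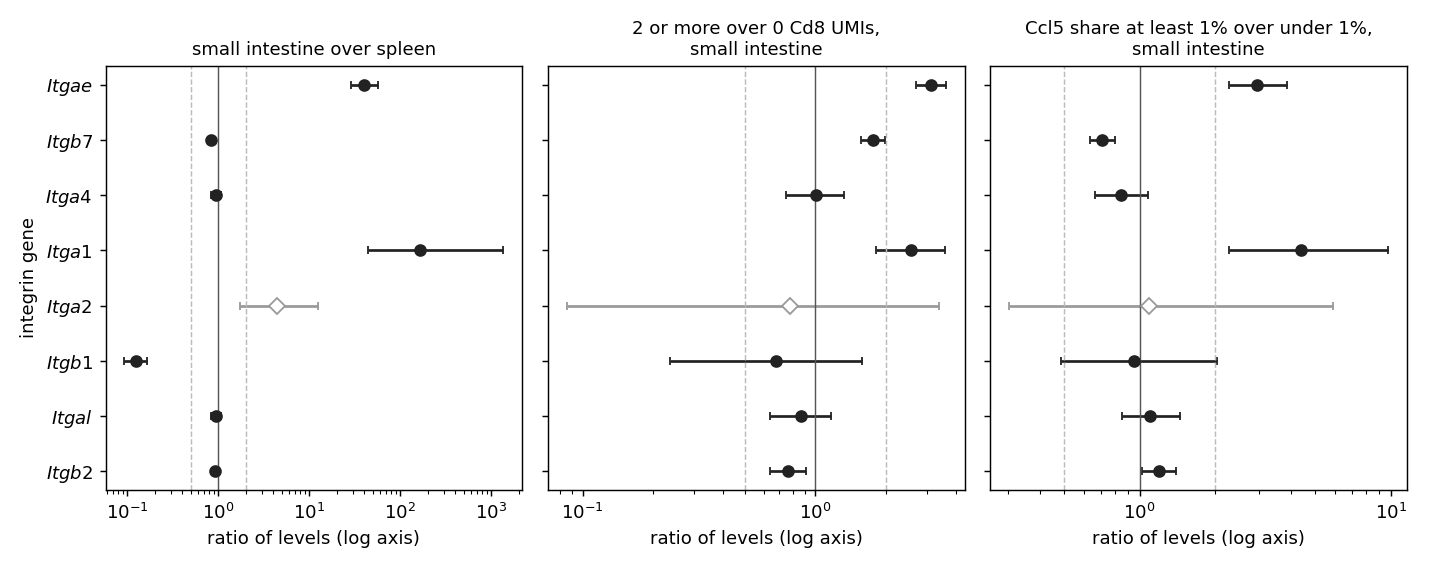
Ratio of levels of each integrin gene (log axes) between small intestine and spleen (left), and within the small intestine between cells with 2 or more and with 0 Cd8 UMIs (middle) and between cells with a *Ccl5* share of at least 1% and the others (right). Bars are exact 95% intervals for counting error, dashed lines mark 2-fold, and open diamonds are genes with fewer than 50 UMIs. *Itgae* and *Itga1* lie above 2 in all 3 comparisons, and *Itgb7* lies above 1 in the middle (1.77) and below 1 on the right (0.709).

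Some intestinal cells carried RNA of the CD8 coreceptor, and these had more *Itgae*, *Itga1* and *Itgb7* than the others. *Cd8a* and *Cd8b1* UMIs were summed, and 148 cells had 2 or more, 56 had 1 and 1074 had 0, with medians of 4241, 3433 and 3648.5 UMIs in all. Of 7 integrin genes with 50 or more UMIs, 2 were at least 2-fold higher in the cells with 2 or more and 0 were lower, beside 1.73% and 6.96% of 6765 genes. The median log2 ratio of all these genes was -0.13, and with levels scaled to it 2.38% were higher and 5.47% lower, with the same 2 integrin genes.

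*Itgae* had 126 CPM (116 to 138) in cells with 0 Cd8 UMIs, 225 CPM (166 to 299.6) in cells with 1 and 396 CPM (352 to 444) in cells with 2 or more. The ratio of the last to the first was 3.13 (2.71 to 3.62), or 3.43 relative to the median of all genes. At equal depth 51.8% (43.2 to 60.3) of cells with 2 or more and 20.4% (17.9 to 23.1) of cells with 0 had an *Itgae* UMI, against 74.3% and 28.7% as deposited. *Itga1* had 28.0 CPM (23.1 to 33.6), 52.7 CPM (26.3 to 94.3) and 72.0 CPM (54.1 to 94.0) over the same 3 groups, with a ratio of 2.57 (1.83 to 3.59), or 2.82 relative to the median. *Itgb7* had 284 CPM (268 to 301), 379 CPM (299.8 to 472) and 504 CPM (455 to 558), with a ratio of 1.77 (1.58 to 1.99), or 1.94 relative to the median. All 3 genes had their lowest level in the cells with 0 and their highest in the cells with 2 or more. The bounds of *Itgae* were apart between all 3 groups, and those of *Itga1* and *Itgb7* were apart between 0 and 2 or more, with the cells of 1 UMI overlapping both. *Itgb2* was lower in the cells with 2 or more, with 187 CPM (157 to 220.3) against 245 CPM (229.7 to 260.3), a ratio of 0.763 (0.635 to 0.912), or 0.835 relative to the median. For *Itga4* (1.0003, 0.746 to 1.32), *Itgal* (0.870, 0.638 to 1.17) and *Itgb1* (0.679, 0.238 to 1.59) no difference was detectable beyond counting error, and *Itgb1* had 6 UMIs in the cells with 2 or more.

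Cells with both *Cd8a* and *Cd8b1* (121 cells) had 403 CPM (356 to 455) of *Itgae*, cells with *Cd8a* alone (48) had 354 CPM (269 to 456) and cells with *Cd8b1* alone (35) had 166 CPM (106 to 247). The first 2 groups overlapped in their bounds, and both lay above cells with neither. *Cd4* itself had 445 CPM (425 to 466) in cells with 0 Cd8 UMIs and 139 CPM (113 to 168) in cells with 2 or more. Among the latter, 65 cells had a *Cd4* UMI and 83 had none, and *Itgae* stood at 409 CPM (345 to 480.0) and 384 CPM (325 to 451), so that no difference between cells with and without *Cd4* was detectable beyond counting error. *Itgb7* had 508 CPM (437 to 587) and 500.5 CPM (433 to 576). Scrublet, run as an alternative since doublets were not removed, called 11 kept intestinal cells, and the ratio of *Itgae* without them was 3.17.

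Among genes with 50 or more UMIs, the other lists did not as a whole follow *Itgae* and *Itga1* across the Cd8 groups. Of 2 other integrin subunits and 2 ligands with that many, 0 were higher with 2 or more Cd8 UMIs and 1 ligand was lower. Below 50 UMIs, *Itgax* had 24 in cells with 2 or more and 1 in cells with 0, a ratio of 130 (21.3 to 5364). *Cdh1* had 7 and 1, while *Itgb5* and *Itgb8* had 0 and 14, and *Madcam1* and *Vcam1* 0 and 12. Of 8 residency and recirculation genes with 50 or more UMIs, 0 were at least 2-fold higher in cells with 2 or more Cd8 UMIs and 4 were lower (median log2 ratio -0.98). The 4 lower ones were *Rgs1* (0.469, 0.433 to 0.508) and *Ccr9* (0.497, 0.404 to 0.605), tied to retention and gut homing, and *Klf2* (0.477, 0.223 to 0.909) and *Ccr7* (0.314, 0.0626 to 0.968), tied to recirculation, the last with 3 UMIs in the cells with 2 or more, so genes of both roles were lower. Of 12 regulators, 0 were higher and 4 lower (median log2 ratio -0.44), among them *Runx1* with 0.310 (0.181 to 0.497) and *Bhlhe40* with 0.465 (0.372 to 0.575), while *Runx3* had 1.29 (1.12 to 1.49). Of 15 adaptors, 1 was higher, *Flna*, with 2.08 (1.27 to 3.31), and 2 were lower, *Rap1b* with 0.495 (0.426 to 0.574) and *Cyth1* with 0.310 (0.181 to 0.497). The ratios and counts of these lists were not scaled to the median of all genes (log2 ratio -0.13). *Rgs1*, *Ccr9*, *Klf2*, *Bhlhe40* and *Rap1b* lay close to the 2-fold limit, so their calls depend on that choice. Markers of other cells were also compared between the cells with 2 or more and with 0. Of 3 stromal markers *Pecam1* stood apart, with 1 and 67 UMIs (1.33 and 16.4 CPM), and *Col1a1* and *Col1a2* were at 0. Of 3 mast cell markers *Kit* had 0 and 15 UMIs (0 and 3.68 CPM), with *Cpa3* and *Mcpt1* at 0. The 3 NK cell markers summed to 6 and 12 UMIs (8.001 and 2.94 CPM), with *Ncr1* at 0. The counts of *Kit* and of the NK cell markers were too few to call a difference. The part of all these markers in the integrin levels was not tested.

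*Ccl5*, which encodes a chemokine made by cytotoxic and memory T cells, took at least 1% of all UMIs in 1052 of 1278 intestinal cells, and these had more *Itgae* and *Itga1* and less *Itgb7* than the other 226. Their medians were 3677.5 and 3788.5 UMIs. Of the 7 genes with 50 or more UMIs, 2 were at least 2-fold higher in the cells rich in *Ccl5* and 0 were lower, beside 2.88% and 4.66% of 6870 genes. The median log2 ratio of all these genes was -0.15, and with levels scaled to it 3.94% of them were higher and 3.26% lower, again with the same 2 integrin genes.

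*Itgae* had 195 CPM (182 to 209) in the cells rich in *Ccl5* and 66.3 CPM (51.0 to 84.9) in the others, a ratio of 2.94 (2.27 to 3.86), or 3.25 relative to the median of all genes. At equal depth 28.2% (25.3 to 31.2) and 10.3% (6.52 to 15.4) of the cells had a UMI, against 39.1% and 15.0% as deposited. *Itga1* had 41.6 CPM (35.6 to 48.4) and 9.47 CPM (4.33 to 18.0), a ratio of 4.39 (2.26 to 9.77) that rests on 9 UMIs in the poorer cells. In both genes the rich cells stood above the others with bounds apart. *Itgb7* had 298 CPM (281 to 315) and 420.0 CPM (379.8 to 463), a ratio of 0.709 (0.633 to 0.796), or 0.784 relative to the median. *Itgb2* had 243 CPM (228 to 259) and 203 CPM (176 to 234), a ratio of 1.20 (1.02 to 1.40). *Itga4* (0.842, 0.662 to 1.08), *Itgal* (1.10, 0.848 to 1.45) and *Itgb1* (0.952, 0.485 to 2.04) had intervals that held 1.

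Finer bins of the *Ccl5* share showed where the levels differed. *Itgae* had 50.4 CPM (35.9 to 69.0) in the 188 cells with a share under 0.5%, and 136 CPM (86.9 to 202) in the 38 cells from 0.5% to 1%, just below the threshold. It had 156 CPM (117 to 203) in the 82 cells from 1% to 2%, just above it, and 200.2 CPM (185 to 216) in the 881 cells at 3% or more. The bins on either side of the threshold thus overlapped, and the gap lay toward the cells with the least *Ccl5*. *Itgb7* had 445 CPM (399 to 495) under 0.5% and between 293 and 329 CPM in the other 4 bins. *Itga1* had 6.47 CPM (2.10 to 15.1) under 0.5% and between 22.6 and 43.3 CPM in the other 4.

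**Figure D4:**
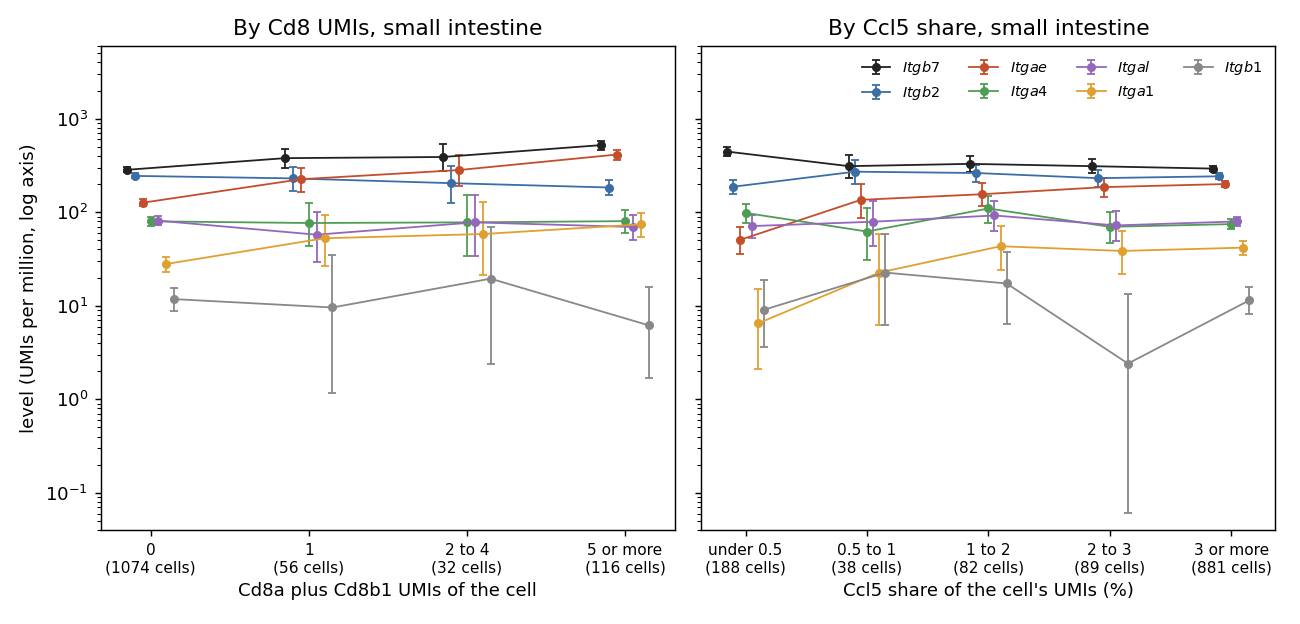
Levels of 7 integrin genes in CPM (log axis) in intestinal cells grouped by the sum of *Cd8a* and *Cd8b1* UMIs (left) and by the share of the cell's UMIs that are *Ccl5* (right). Points are levels over the cells of a group, with exact Poisson 95% intervals, and the number of cells stands under each group. *Itgae* goes from 126 CPM at 0 to 414 at 5 or more Cd8 UMIs, and from 50.4 CPM in the cells with the least *Ccl5* to 200.2 in those with the most, while *Itgb7* is highest in the cells with the least *Ccl5*.

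The 2 gates overlapped, since 147 of the 148 cells with 2 or more Cd8 UMIs were rich in *Ccl5*, and each was therefore also read within the other. Among cells with 0 Cd8 UMIs, *Itgae* had 144 CPM (131 to 158) in those rich in *Ccl5* and 66.7 CPM (51.1 to 85.5) in the others, a ratio of 2.16 (1.65 to 2.86). *Itga1* had 33.4 CPM (27.3 to 40.4) and 9.68 CPM (4.43 to 18.4), a ratio of 3.45 (1.75 to 7.75). Both genes were thus higher with *Ccl5* in the absence of Cd8 UMIs. *Itgb7* had 244 CPM (227 to 262) and 420.5 CPM (379.8 to 464) there, a ratio of 0.580 (0.513 to 0.657). Among cells rich in *Ccl5*, those with 2 or more Cd8 UMIs had 397 CPM (353 to 445) of *Itgae*, a ratio of 2.76 (2.37 to 3.20) to those with 0. The ratio was 2.17 (1.53 to 3.04) for *Itga1* and 2.06 (1.81 to 2.33) for *Itgb7*, which passed 2-fold only in this setting of those run. *Itgb7* thus stood at 420.5 CPM in cells with neither mark, 244 with *Ccl5* alone and 501 with both. Some markers of other cells also stood apart between the *Ccl5* groups. Of 3 stromal markers *Pecam1* had 53.7 CPM in the poor and 4.90 in the rich cells, with *Col1a1* and *Col1a2* at 0 in both, and the 5 B cell markers summed to 40.003 and 8.08 CPM, with *Jchain* at 0. Of 3 mast cell markers, *Kit* had 14.7 and 0.490 CPM, with *Cpa3* and *Mcpt1* at 0. The 5 myeloid markers summed to 24.2 and 73.2 CPM, nearly all of it *Cd68*, with *Lyz2* at 0. Their part in the integrin levels was not tested.

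In the spleen, 115 cells had a *Ccl5* share of at least 1%, and *Itgae* was scarce in them too, with 1 UMI against 796 in the 1052 intestinal cells of the same gate. *Itgb7* was lower in the splenic cells rich in *Ccl5*, with 270.2 CPM (230.3 to 315) against 398 CPM (385 to 411), a ratio of 0.679 (0.577 to 0.795). *Itgb2* was higher in them, with 411 CPM (361 to 466) against 245 CPM (234 to 255), a ratio of 1.68 (1.47 to 1.92), and *Itga4* also, with 128 CPM (101 to 159.5) against 81.1 CPM (75.2 to 87.4), a ratio of 1.57 (1.23 to 1.99). *Itgb1* had 89.5 CPM in both. Set against each other, the cells rich in *Ccl5* of the 2 tissues differed in *Itgae* with a ratio of 118 (21.0 to 4651) and in *Itgb1* with 0.123 (0.0810 to 0.186), the small intestine over the spleen. *Itgb2* and *Itga4* were lower in the intestinal ones as deposited, with 0.591 (0.514 to 0.682) and 0.604 (0.470 to 0.786). At equal depth these ratios were 0.665 (0.527 to 0.847) and 0.773 (0.514 to 1.21), and the interval of *Itga4* held 1. Among the cells poor in *Ccl5*, *Itgb2* had 0.830 (0.713 to 0.963) and *Itga4* 1.13 (0.893 to 1.41). The levels of *Itgae* and *Itgb1* thus stood apart between the tissues within both classes, since the poorer cells gave 14.9 (9.83 to 23.0) and 0.129 (0.0643 to 0.233). The rich cells were shallower, with a median of 4517 against 5462 UMIs, and at equal depth 20.7% (13.6 to 29.5) and 15.0% (13.1 to 17.0) of cells had an *Itga4* UMI. The ratio of *Itga4* levels at equal depth was 1.38 (0.891 to 2.06), an interval that held 1.

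*Foxp3* encodes the defining transcription factor of regulatory T cells, and splenic cells with a UMI of it had less *Itga4* and *Itgb1* and more *Itgb7* than those without. There were 280 with a median of 7685.5 UMIs and 1189 with 5051. *Itgb1* had 48.1 CPM (39.6 to 57.9) against 104 CPM (96.1 to 112), a ratio of 0.464 (0.377 to 0.567), and a UMI of it was found at equal depth in 9.75% (6.52 to 13.9) and 16.9% (14.8 to 19.1) of cells. *Itga4* had 50.7 CPM (41.9 to 60.7) against 95.6 CPM (88.4 to 103), a ratio of 0.530 (0.432 to 0.646). Both subunits of VLA-4 were thus lower where *Foxp3* was detected. *Itgb7* had 476 CPM (449 to 505) against 359.9 CPM (346 to 374), a ratio of 1.32 (1.23 to 1.42), and *Itgae*, with 17 and 22 UMIs, a ratio of 2.27 (1.13 to 4.47). The small intestine had 28 cells with a *Foxp3* UMI, in which *Itgb7* stood at 563 CPM (449 to 696) against 313 CPM (298 to 329.5) and *Itgae* at 147 CPM (92.3 to 223) against 171 CPM (159.9 to 183). With all cells that had a *Foxp3* UMI left out of both tissues, the ratios of small intestine to spleen were 53.2 for *Itgae* and 0.107 for *Itgb1*.

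CD49b, the product of *Itga2*, is sorted in the study together with LAG-3. *Lag3* was found in 92.9% of intestinal and 89.0% of splenic cells. Of the 17 intestinal cells with an *Itga2* UMI, 16 also had *Lag3*, where the product of the single shares gives 15.8, and of the 7 splenic cells 6 had it, where 6.23 are given. *Lag3* was found in so many cells, and *Itga2* in so few, that even *Lag3* in all cells with *Itga2* would lie close to the product. The counts therefore could not show whether the 2 genes rise together. RNA levels also do not give the surface levels that a sort reads.

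Because an alpha subunit needs its partner, UMIs of both subunits were counted in the same cell at equal depth and set beside the product of the 2 single shares. In the small intestine, *Itgae* and *Itgb7* were found together in 138 of 1150 cells, 12.0% (10.2 to 14.0), where the product gives 10.8%. In the spleen they were together in 4 of 1439 cells, 0.278% (0.0758 to 0.710), and in up to 0.764% over 4 further random thinnings. Of the intestinal cells with *Itgae*, 47.9% (42.0 to 53.9) had *Itgb7*, beside 43.1% of all cells. Within cells of 2 or more Cd8 UMIs both were found in 56 of 139 cells, 40.3% (32.1 to 48.9), and within cells with 0 in 73 of 960 cells, 7.60% (6.01 to 9.47). The share of cells with RNA of both *Itgae* and *Itgb7* was thus higher with Cd8 UMIs, and within each of these groups the product, 36.1% and 8.02%, lay within the bounds. At the depth deposited, *Itgae* and *Itgb7* were together in 305 of 1278 intestinal cells, 23.9% (21.6 to 26.3). The product of 20.5% lay below those bounds. Cells differ in depth there, and the part of depth was not tested.

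*Itga4* and *Itgb7* were found together at similar shares in both tissues, in 88 of 1150 cells, 7.65% (6.18 to 9.34) among intestinal and 122 of 1439 cells, 8.48% (7.09 to 10.0) among splenic ones. *Itga4* and *Itgb1* were together in 2 intestinal cells and in 52 of 1439 cells, 3.61% (2.71 to 4.71) of the spleen, where the product gives 2.39%, below the bounds. Over 4 further random thinnings the splenic share lay between 3.34% and 4.86%. Of the cells with *Itga4*, 43.1% of the intestinal and 54.95% of the splenic ones had an *Itgb7* UMI, and 0.980% and 23.4% an *Itgb1* UMI, so that many had neither partner detected at this depth. At the depth deposited 14 of 319 intestinal cells with *Itga4* had *Itgb1*, where the product gives 13.2. *Itga1* and *Itgb1* were together in 0 of 1150 intestinal cells, with an exact upper bound of 0.320% (3 counts would be 0.261%), and 85 cells had *Itga1*, where the product gives 2.07 cells. At the depth deposited 8 of the 155 intestinal cells with *Itga1* had *Itgb1*, where the product gives 6.43. At either depth the count did not stand apart from the product beyond counting error, and most intestinal cells with *Itga1* RNA had no *Itgb1* UMI. *Itgal* and *Itgb2* were together in 66 of 1150 cells, 5.74% (4.47 to 7.24) among intestinal and 105 of 1439 cells, 7.30% (6.01 to 8.76) among splenic ones, each with the product within its bounds. At the depth deposited, 29.7% (27.4 to 32.2) of splenic cells had both, and the product of 27.2% lay below those bounds.

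**Figure D5:**
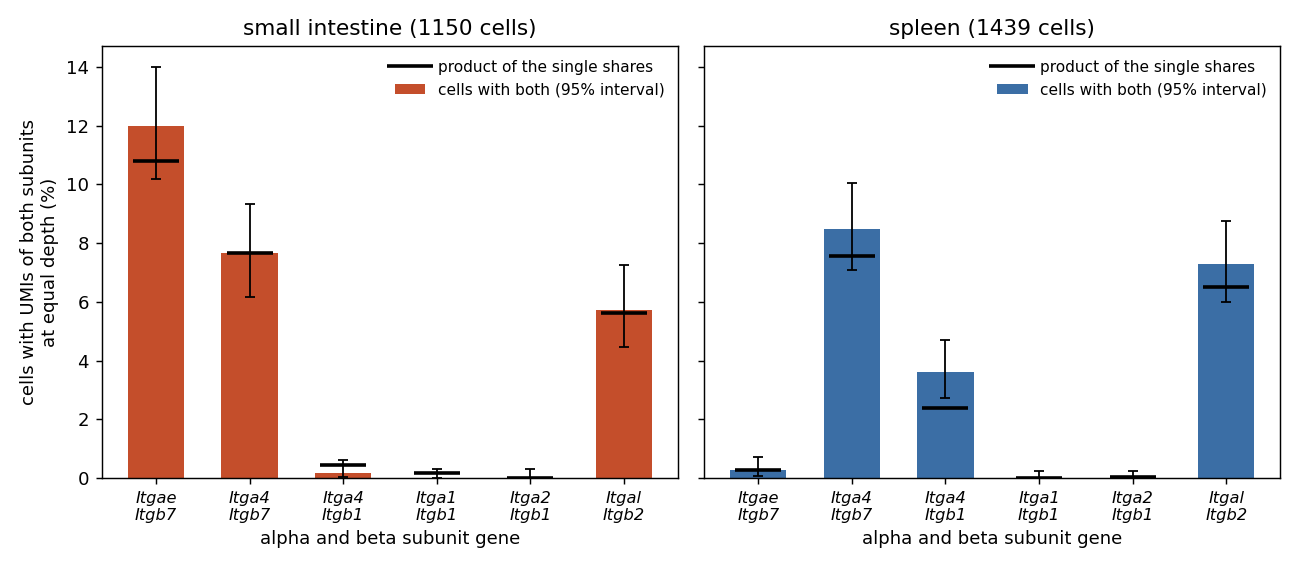
Share of cells (%) with UMIs of both subunits of 6 known integrin pairs at equal depth, in the small intestine (left) and the spleen (right). Bars have exact binomial 95% intervals, and black lines mark the product of the 2 single shares. *Itgae* with *Itgb7* is the highest bar in the small intestine (12.0%) and near 0 in the spleen, and *Itga4* with *Itgb1* reaches 3.61% of splenic cells, above its line, against 0.174% of intestinal ones.

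Among alpha subunits in the small intestine, *Itgae* was found in 34.1% (24.2 to 45.2) of cells with *Itga1* and in 24.3% (21.8 to 27.0) of cells without, with bounds that overlapped. For *Itga4* the shares were 23.5% (17.9 to 29.96) and 25.4% (22.6 to 28.3), so that *Itgae* and *Itga4* were neither joined nor kept apart beyond counting error. At equal depth a cell had UMIs of 1.49 of the 8 genes on average in intestinal and 1.37 in splenic cells, and 17.6% and 20.8% of cells had none of them.

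For each integrin gene, other genes were ranked by the ratio of their level between cells with and without a UMI of the integrin gene at equal depth. The ranking covered 3075 intestinal and 3643 splenic genes with 100 or more UMIs. These ratios are descriptions over cells of 1 library. The genes named are the extremes of all those ranked, and the bounds do not allow for that choice, so they are no test of a link. With intestinal *Itgae* (288 cells) the 5 highest were *Cd8a* with 4.08 (3.32 to 5.02), *Cd7* with 3.19 (2.85 to 3.58), *Cd8b1* with 3.19 (2.51 to 4.05), *Gpr55* with 2.02 (1.42 to 2.85) and *Cd160* with 1.98 (1.57 to 2.48), with Pearson correlations over 1150 cells of 0.13 to 0.35. *Cd7* is a surface molecule of T cells, and *Cd160* a receptor of cytotoxic lymphocytes. The 2 lowest were *Tmem176b*, with 0.168 (0.0602 to 0.377), and the cytokine *Il17f*, with 0 UMIs in cells with *Itgae* and 150 in those without, 34.0% of them from 1 cell.

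With intestinal *Itgb7* (496 cells) the highest were *Cd8b1* with 2.62 (2.04 to 3.39), *Cd8a* with 2.62 (2.11 to 3.26), *S100a6* with 2.01 (1.72 to 2.36) and *Ckb* with 2.01 (1.34 to 3.04), followed by *Il17f*, of which 1 cell held 34.0% of the UMIs. With splenic *Itgb7* (705 cells) they were *Mt1* with 2.32 (1.72 to 3.16), *Myo1f* with 2.06 (1.42 to 3.02), *Lztfl1* with 1.97 (1.31 to 3.004), *Anxa2* with 1.96 (1.61 to 2.39) and *Lgals3* with 1.94 (1.64 to 2.30). *Lgals3*, encoding galectin-3, was also among the 5 highest of splenic *Itgb1* (2.78, 2.34 to 3.30), *Itga4* (2.07, 1.72 to 2.49) and *Itgb2* (2.12, 1.79 to 2.50). With splenic *Itgb1* (223 cells) *Nrp1* had 2.41 (1.60 to 3.57), and *Spp1* headed the list with 114 against 2 UMIs, most of them from the single cell named above. With splenic *Itga4* (222 cells) the highest was *Adam19* with 3.002 (2.05 to 4.35), and *Gzmk*, a granzyme of memory T cells, had 2.19 (1.43 to 3.30). With splenic *Itgb2* (574 cells) *Il12rb2* (2.33, 1.56 to 3.52), *Ccl3* (2.26, 1.88 to 2.72) and *Gzma* (2.22, 1.59 to 3.13) followed *Spp1*, with 27.8% of *Gzma* UMIs in 1 cell. With intestinal *Itga4* the highest were *Il17f* and *Cd74*, of which 1 cell held 34.0% and 35.4% of the UMIs. For *Itgal* in either tissue, and for intestinal *Itgb2*, the highest ratio of any gene was 2.18, and *Itga1* and *Itga2* in both tissues, intestinal *Itgb1* and splenic *Itgae* had too few cells to be described in this way.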

How the data were processed

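The deposited files were UMI counts per gene and cell in 10X matrices, 1 per tissue. The authors made them with cellranger mkfastq, Trimmomatic and CellRanger on mm10 (versions not given in the sources used here; the submitters' processing notes also list mm8). Barcodes more than 3 median absolute deviations below the median in log UMIs or log genes, or above it in mitochondrial share, were removed (135 intestinal, 90 splenic). Barcodes with many UMIs were not removed. Cells called G2/M by cyclone were then left out (61 and 179), with R 4.3.3, scran 1.30.0, scuttle 1.12.0 and Matrix 1.6.5. UMIs were summed over cells, and ratios have exact conditional binomial intervals. For equal depth, UMIs were drawn without replacement to the 10th percentile of the kept intestinal cells. Python 3.11.15, numpy 2.4.6, scipy 1.17.1, pandas 2.3.3, matplotlib 3.10.9 and, for Scrublet, scanpy 1.11.5 were used. The computation was tested on simulated data. Positions are those of GENCODE vM21 on GRCm38, and promoters those of RefSeq. Besides the 8 genes and the gating genes, genes were named from 5 lists (other integrin subunits, adaptors, ligands, residency and recirculation, regulators), at most the 4 farthest apart between tissues in each direction, and the 5 highest and 2 lowest genes by ratio with each integrin gene where at least 100 cells had it. In the comparisons by *Cd8a* and *Cd8b1*, and for *Tln1*, *Fermt3* and *Rap1a*, list members were named after their values were seen. Some genes of the residency and recirculation list are counted but not reported here by name. The genes and lists were chosen with earlier results of these data known.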

Additional observations from a re-analysis of the deposited data

Results flagged for a closer look

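For 2 of the 8 integrin genes, the ratio of cells with a *Ccl5* share of at least 1% over the other cells lay on different sides of 1 in the 2 tissues, with counting intervals that did not overlap between the tissues. In each case the interval of 1 tissue held 1, so that opposite directions were not shown. Splits by *Foxp3* and by *Lag3* were screened by the same rule, which flagged none of the 8 genes there. The share of all genes that meet the rule was not computed, so the count of 2 is not read as a result. The ratio of *Itgae*, rich over poor cells, was 2.94 (2.27 to 3.86) in intestinal cells, against 0.373 (0.00921 to 2.21) in splenic ones, where the rich cells held 1 UMI. The ratio of *Itga4* was 0.842 (0.662 to 1.08) in intestinal cells, against 1.57 (1.23 to 1.99) in splenic ones, and at equal depth the splenic one was 1.38 (0.891 to 2.06), which overlapped the intestinal interval. The difference between the tissues was not tested in either case, since each tissue had 1 library. The rich cells were 82.3% of intestinal and 7.83% of splenic cells.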

How the results depend on the processing

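Of 50 recomputed counts of integrin genes at least 2-fold apart, 48 lay within 1.5 times the reported count. With 3-fold in place of 2-fold, 1 gene (*Itgae*) was left by Cd8 UMIs and 1 (*Itga1*) by *Ccl5* share. With genes of 10 or more UMIs, *Itga2* joined the higher genes between the tissues, and at 1.5-fold *Itgb7* joined those by Cd8 UMIs. A looser setting calls more of all genes too. The shares of all genes called at these settings are not reported here, so nothing is drawn from a gene that joined or left. Over the alternatives run, the ratio of *Itgae* was 28.3 to 53.3 between the tissues, 2.59 to 3.43 by Cd8 UMIs and 2.16 to 3.81 by *Ccl5* share. That of *Itga1* was 2.17 to 3.25 and 2.24 to 6.31 by the same gates. Between the tissues the ratio of *Itga1* was 50.1 to 236, and 2 of 5 random thinnings left 0 splenic UMIs and gave no ratio. That of *Itgb1* was 0.0942 to 0.136. No called ratio turned its direction. Of 398 ratios, 19 lay outside the reported counting interval, as did 2 of 48 levels and 12 of 72 pair shares. The levels were those of splenic *Itgb7*, 422 CPM over every barcode and 407 with G2/M cells kept. No paired analysis was possible because each tissue had 1 library, and for the same reason no replicate could be left out. The intervals hold no variation between mice, and depth limits *Itga2*, splenic *Itgae* and *Itga1*, and intestinal *Itgb1*.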
